A study of Mus musculus with 8 samples.

Results

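The carriers that bring organic anions from portal blood into the hepatocyte were followed in the livers of *Apoe*-/- mice given isoginkgetin (ISOGK). The set was given by name as 8 genes, *Slco1a1*, *Slco1a4*, *Slco1b2*, *Slco2b1*, *Slc22a7*, *Slc22a27*, *Slc22a28* and *Slc22a30*, and all 8 were found among the 16540 genes of the count table. All 8 also passed the filter on low counts that left 12307 genes to test. The set is named for organic anions and cations, but its members belong to the anion-transporting families.

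Liver RNA was sequenced from 4 vehicle-treated and 4 ISOGK-treated mice, with 1 library per mouse. Every mouse was male, carried the *Apoe* knockout that raises plasma cholesterol, and was fed a Western diet, so that no liver with intact *Apoe* or on chow stood beside them. ISOGK, a biflavonoid, was given at 20 mg/kg per day for 8 weeks, by intraperitoneal injection as the methods of the study state, and the other group received the vehicle. The age of the mice was not given in the sources used here. That each library came from a separate mouse rests on the labels, and otherwise the p-values measure only the spread between these libraries.

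Uptake carriers sit on the sinusoidal membrane of hepatocytes and take up bile acids, bilirubin, steroid conjugates, thyroid hormones and many drugs, statins among them. The *Slco* genes encode organic anion transporting polypeptides, which work without sodium, and the *Slc22* genes encode a family with an organic anion branch and an organic cation branch. In the mouse liver several of these genes differ in level between the sexes and respond to nuclear receptors such as CAR and PXR, which sense drugs and bile acids, and to the hepatocyte factors HNF1 and HNF4.

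Between 17457106 and 24461854 reads per library were counted on genes. Levels are given as CPM, counts scaled to a common library size, after a TMM correction for library composition with factors of 0.883 to 1.09. *Apoe* had 3252 to 6489 counts per library. With no liver of intact *Apoe* beside them, these counts cannot tell whether the gene was knocked out. Only the labels give the knockout. Among 8 hepatocyte markers, the summed level was 161523 to 176553 CPM with vehicle and 148505 to 201168 CPM with ISOGK, and in edgeR's quasi-likelihood test 0 of 8 passed an adjusted p of 0.05, with 1 higher at an unadjusted p under 0.05, 1 higher in DESeq2 and 0 in limma-voom. Skeletal muscle markers summed to 69.7 CPM in vehicle mouse 4 and to at most 0.540 CPM in the other 7 libraries. In RNA from whole liver, fewer cells of a type and less RNA per cell cannot be told apart.

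Of the 8 carriers, *Slc22a28* and *Slc22a30* fell with ISOGK in edgeR's quasi-likelihood test at an adjusted p under 0.05, against 3.44% of all tested genes called lower. The other 6 did not pass. 0 of 8 were higher, against 4.11% of all tested genes, and 0 of 8 were higher at an unadjusted p under 0.05, in DESeq2 or in limma-voom. *Slc22a28* alone also fell by more than a log2 fold change of 1, as 0.626% of tested genes did. In 4 of the 8, all ISOGK-treated mice lay below all vehicle-treated mice, a pattern that 7.36% of tested genes had. The median log2 fold change of the members was -0.67, beside 0.0018 over all tested genes, and 7 of the 8 values were below 0. When libraries were scaled by size alone, 262 genes were higher and 804 lower in place of 506 and 423, and 3 members were lower. Without vehicle mouse 4, the one with muscle transcripts, the members called lower were again *Slc22a28* and *Slc22a30*.

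*Slc22a28* and *Slc22a30*, less studied members of the organic anion branch of the *Slc22* family, are near-copies of each other. Their promoter windows are shown to describe this likeness, while how far their counts can be read apart depends on their transcripts. Both lie on the minus strand in a run of *Slc22* genes on chromosome 19 (GRCm38), *Slc22a28* at chr19:8062209-8131982 and *Slc22a30* at chr19:8335371-8405111. The longest annotated coding sequences of the pair, 1656 bases each, were 98.8% identical. Their promoter windows in RefSeq (GRCm38.p6, 250 bases before to 50 after the annotated start, minus strand) were 94.1% identical over 306 aligned columns, whereas the next most alike of the 36 pairs of windows reached 50.6%. The windows lie at chr19:8131933-8132232 for *Slc22a28* and chr19:8405056-8405355 for *Slc22a30*, and capitals mark the bases that differ between them or stand opposite a gap.
Slc22a28: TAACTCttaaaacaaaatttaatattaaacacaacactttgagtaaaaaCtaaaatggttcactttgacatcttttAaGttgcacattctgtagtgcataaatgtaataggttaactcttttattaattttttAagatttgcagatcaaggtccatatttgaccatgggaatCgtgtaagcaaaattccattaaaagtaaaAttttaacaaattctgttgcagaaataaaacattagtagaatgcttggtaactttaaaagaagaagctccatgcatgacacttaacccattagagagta
Slc22a30: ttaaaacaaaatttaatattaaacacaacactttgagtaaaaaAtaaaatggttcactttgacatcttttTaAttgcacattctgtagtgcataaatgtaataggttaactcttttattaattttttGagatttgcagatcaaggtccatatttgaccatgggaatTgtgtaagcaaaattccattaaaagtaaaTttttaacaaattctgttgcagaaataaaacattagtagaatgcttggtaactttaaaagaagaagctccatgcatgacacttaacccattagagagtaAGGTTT
In the alignment 288 bases of each window were the same, 6 aligned bases differed, and the remaining capitals, a run at one end of each window, stood opposite a gap.

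*Slc22a30* had levels of 96.3, 89.9, 82.1 and 81.6 CPM in vehicle mice 1 to 4 and of 54.5, 50.03, 44.9 and 50.7 CPM in ISOGK mice 1 to 4. The groups were well apart, with the lowest vehicle mouse above the highest ISOGK mouse and a spread within each group that was small beside the gap. The group means were 87.5 ± 6.995 CPM (SD, n = 4) and 50.03 ± 3.95 CPM (SD, n = 4). Its log2 fold change was -0.81 (SE 0.09), and its adjusted p of 0.000908 in edgeR's quasi-likelihood test was the smallest of the set.

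*Slc22a28* was far less abundant, with 7.83, 7.59, 6.50 and 7.50 CPM in vehicle mice 1 to 4 and 3.97, 4.43, 1.75 and 3.04 CPM in ISOGK mice 1 to 4. Here too the groups did not overlap, and ISOGK mouse 3, with 31 counts, was the lowest. The means were 7.36 ± 0.586 CPM and 3.30 ± 1.18 CPM (SD, n = 4 each), a log2 fold change of -1.15 (SE 0.23, adjusted p of 0.0110 by edgeR's quasi-likelihood test). Its ISOGK mean was 44.9% of its vehicle mean, and that of *Slc22a30* was 57.2%.

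Of the distinct 50-base stretches in the annotated transcripts of *Slc22a28*, 53.3% also occur in *Slc22a30*, and 31.0% of those of *Slc22a30* occur in *Slc22a28*. How reads that match both genes were counted is not given in the sources used here, so the division of counts within the pair is uncertain. When the counts of the pair were summed to 1 row, an alternative chosen after seeing the data, the log2 fold change was -0.83 (SE 0.10, adjusted p of 0.000908 in edgeR's quasi-likelihood test). The log2 ratio of *Slc22a28* to *Slc22a30* counts within a library was -3.57 ± 0.094 with vehicle and -3.99 ± 0.499 with ISOGK (SD, n = 4 each). The vehicle mice were closely alike in this ratio, and the ISOGK mice spread from -4.66 to -3.49. That range took in every vehicle value but the highest, -3.44 in vehicle mouse 4. The difference of -0.42 did not pass a two-sided exact permutation test (p = 0.143, adjusted p = 0.214 over the 3 ratios tested).

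*Slc22a27*, the next member of the same run of genes (chr19:7864388-7966027, minus strand), shared 91.5% of aligned coding bases with *Slc22a28* and 91.6% with *Slc22a30*. It was close to the limit of detection, with 26, 42, 30 and 58 counts in vehicle mice 1 to 4 and 7, 20, 18 and 17 counts in ISOGK mice 1 to 4. Every ISOGK mouse lay below every vehicle mouse, vehicle mouse 4 stood highest, and ISOGK mouse 1 lowest. On the CPM scale the means were 1.68 ± 0.641 and 0.827 ± 0.330 (SD, n = 4 each), and the log2 fold change of -1.03 (SE 0.37) had an adjusted p of 0.112 in edgeR's quasi-likelihood test. Among its 50-base stretches, 29.9% occur in another gene, chiefly *Slc22a29*, which shares 25.3% of them.

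The run of *Slc22* genes from *Slc22a19* to *Slc22a6* holds 8 annotated coding genes, of which 5 were in the count table and 4 were tested. The other tested gene besides the members was *Slc22a26*, with 35 to 60 counts per vehicle mouse, 22 to 44 per ISOGK mouse and a log2 fold change of -0.35 (SE 0.26, adjusted p of 0.443 by edgeR's quasi-likelihood test). *Slc22a29* was below the filter, with 44 counts over the 4 vehicle mice and 4 over the 4 ISOGK mice. Both were picked out after their values were seen, as neighbours of the members.

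*Slc22a7* encodes OAT2, an organic anion transporter of the sinusoidal membrane whose substrates include nucleotides and prostaglandins, and lies alone at chr17:46432183-46438457 (minus strand). Its levels were 25.4, 31.8, 9.97 and 13.5 CPM in vehicle mice 1 to 4 and 15.99, 19.8, 8.76 and 11.5 CPM in ISOGK mice 1 to 4. Within the vehicle group alone the highest mouse was 3.19 times the lowest, and 3 of the 4 ISOGK mice fell inside the vehicle range. Its log2 fold change was -0.52 (SE 0.41), with a 95% interval from -1.47 to 0.43 and an adjusted p of 0.491 in edgeR's quasi-likelihood test.

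**Figure D1:**
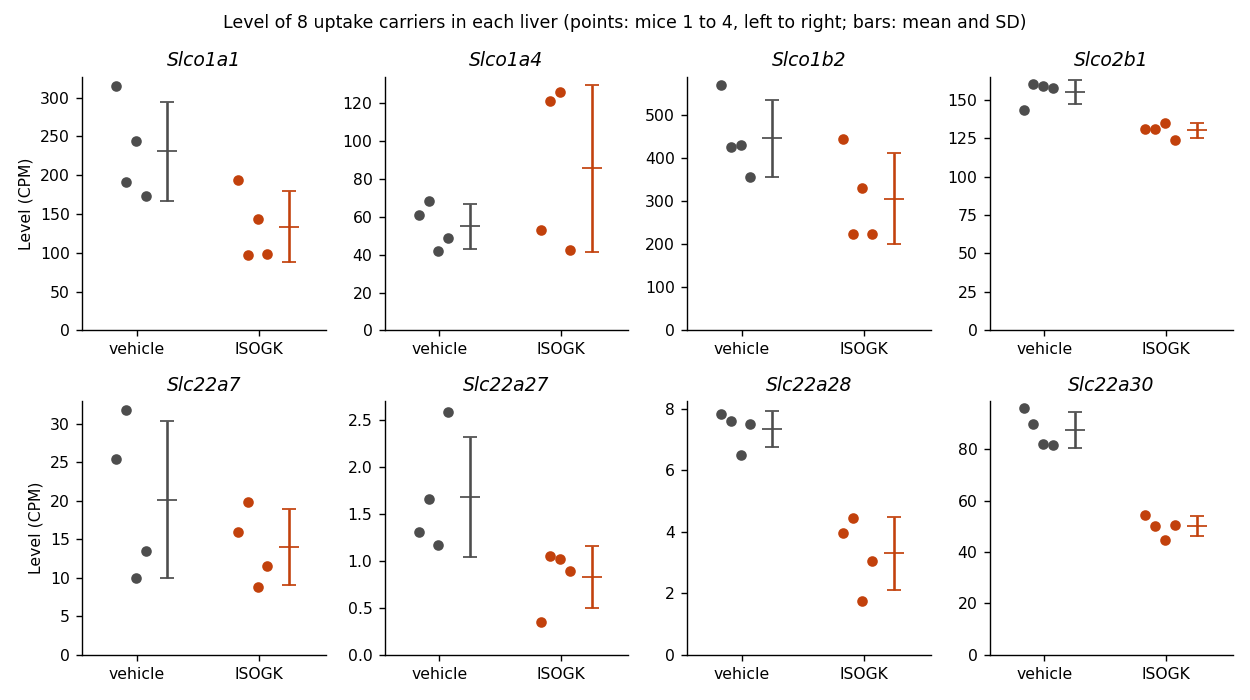
Level of each of the 8 carriers in CPM (vertical axes, starting at 0) in vehicle-treated (grey) and ISOGK-treated (orange) livers. Each point is 1 mouse, and the bars beside the points are the mean and SD of 4 mice. *Slc22a30*, *Slc22a28*, *Slc22a27* and *Slco2b1* have all ISOGK points below all vehicle points, while the points of the other 4 overlap.

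*Slco1b2* encodes the liver-specific organic anion transporting polypeptide that takes up bilirubin glucuronides, unconjugated bile acids and statins. It lies on the plus strand at chr6:141629518-141686646, and its transcripts shared no 50-base stretch with another gene. Its levels were 571, 426, 430.1 and 358 CPM in vehicle mice 1 to 4 and 445, 225, 332 and 223 CPM in ISOGK mice 1 to 4. ISOGK mouse 1 lay inside the vehicle range and the other 3 lay below it. The means were 446 ± 89.7 CPM and 306 ± 106 CPM (SD, n = 4 each), and the log2 fold change of -0.54 (SE 0.23) had an adjusted p of 0.190 in edgeR's quasi-likelihood test.

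*Slco1a1* encodes a carrier of sulfated steroids, bile acids and other anions that is known for higher levels in male than in female mouse liver, and lies at chr6:141907282-141946962 (minus strand). It had levels of 316, 191, 244 and 173 CPM in vehicle mice 1 to 4 and of 194, 97.6, 144 and 98.0 CPM in ISOGK mice 1 to 4. The pattern was that of *Slco1b2*, with ISOGK mouse 1 inside the vehicle range and the other 3 below it. The means were 231 ± 64.0 CPM and 133 ± 45.7 CPM (SD, n = 4 each), and the log2 fold change of -0.79 (SE 0.26) had an adjusted p of 0.110 in edgeR's quasi-likelihood test.

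For both genes the mouse with the highest level was number 1 in either group, although the numbers only name the mice. Both calls changed with ISOGK mouse 1. Without it, *Slco1a1* had a log2 fold change of -1.03 (adjusted p of 0.0234) and *Slco1b2* one of -0.78 (adjusted p of 0.0291) in edgeR's quasi-likelihood test. In that fit 4 of the 8 members were lower rather than 2, beside 476 of all 12428 genes tested. The library of ISOGK mouse 1, with 21033733 counts, was of middle size. With all 8 mice, *Slco1a1* passed in the Wald test of DESeq2 (adjusted p of 0.0129), where *Slco1b2* did not, and both passed with a replicate block in edgeR (adjusted p of 0.00261 and 0.0227), although the numbers were not shown to pair the mice.

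*Slco1a4* encodes a carrier of cardiac glycosides, bile acids and other anions and is a known target of PXR in the mouse. It neighbours *Slco1a1* at chr6:141805440-141856199 (minus strand), and their coding sequences were 86.7% identical, although only 1.61% of its 50-base stretches occur in another gene. Its levels were 60.8, 68.3, 41.9 and 49.0 CPM in vehicle mice 1 to 4 and 53.3, 121, 126 and 42.2 CPM in ISOGK mice 1 to 4. ISOGK mice 2 and 3 lay above the vehicle range and the other 2 lay within it, so that the highest ISOGK mouse had 2.98 times the level of the lowest. Its log2 fold change was 0.64 (SE 0.38), with a 95% interval from -0.25 to 1.53 and an adjusted p of 0.359 in edgeR's quasi-likelihood test.

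The ratio of the neighbours *Slco1a1* and *Slco1a4*, whose fold changes had opposite signs, was compared within each library, which does not depend on scaling between libraries. The log2 ratio of *Slco1a1* to *Slco1a4* counts was 2.38, 1.48, 2.54 and 1.82 in vehicle mice 1 to 4 and 1.86, -0.31, 0.19 and 1.21 in ISOGK mice 1 to 4. 3 of the 4 ISOGK mice lay below the vehicle range, and in ISOGK mouse 2 *Slco1a4* had more counts than *Slco1a1*. The means were 2.06 ± 0.489 and 0.74 ± 0.982 (SD, n = 4 each), and the difference of -1.32 did not pass a two-sided exact permutation test (p = 0.0857, adjusted p = 0.214 over 3 ratios, where 0.0286 is the smallest p that 4 mice against 4 allow).

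**Figure D2:**
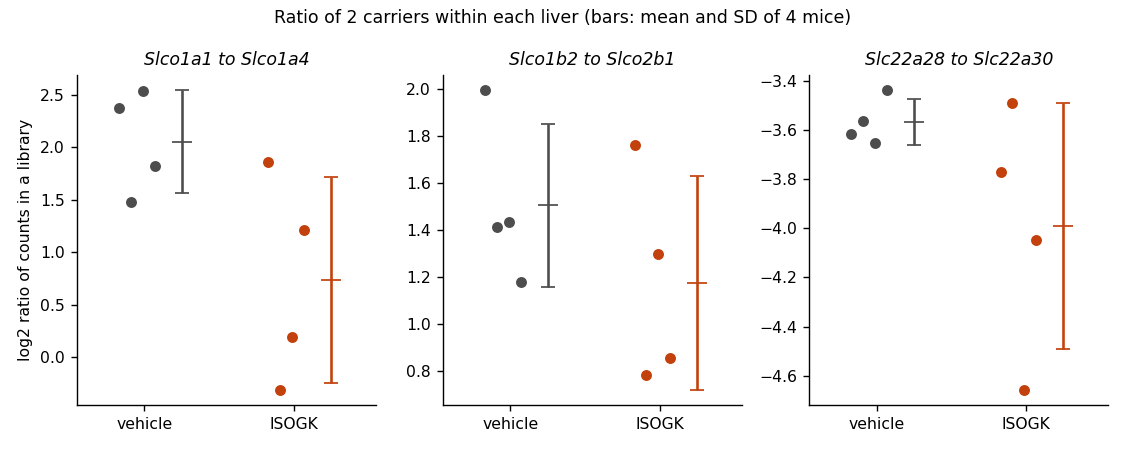
Log2 ratio of the counts of 2 carriers within each liver (vertical axes, which differ between panels) for vehicle-treated (grey) and ISOGK-treated (orange) mice, with the mean and SD of 4 mice beside the points. In all 3 panels the ISOGK points spread more widely than the vehicle points and the groups overlap.

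*Slco2b1* encodes a broadly expressed carrier of steroid sulfates and drugs, at chr7:99657804-99711340 on the minus strand, where its exons overlap the annotated genes *Gm15635* and *Gm34280*. Its levels were 143, 160.0, 159 and 158 CPM in vehicle mice 1 to 4 and 131, 131, 135 and 123 CPM in ISOGK mice 1 to 4. It varied least among the mice of a group, with the highest vehicle mouse at 1.12 times the lowest, and the groups did not overlap. The means of 155 ± 7.97 CPM and 130.0 ± 4.68 CPM (SD, n = 4 each) gave a log2 fold change of -0.25 (SE 0.08), with an adjusted p of 0.0859 in edgeR's quasi-likelihood test and of 0.0150 in the Wald test of DESeq2. Whether the counting used strand is not given, so counts from the overlapping genes could be included.

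Markers of Kupffer cells, the liver macrophages, were read beside these values. Their summed level was 924 to 1195 CPM with vehicle and 733 to 958 CPM with ISOGK, all 6 markers were detected, and the median log2 fold change was -0.65. In edgeR's quasi-likelihood test 0 of 6 passed, with 1 lower at an unadjusted p under 0.05, 1 lower in DESeq2 and 0 in limma-voom. That 1 was *Cd5l*, the most abundant of them, with 629 ± 39.3 CPM with vehicle and 480 ± 72.4 CPM with ISOGK (SD, n = 4 each). Its groups did not overlap, and its log2 fold change was -0.39 (SE 0.12, adjusted p of 0.0639 in edgeR's quasi-likelihood test). It passed in 3 of 16 alternatives. Single libraries stood far from the rest: in vehicle mouse 1 *Marco* had 170.4 CPM beside 18.6 to 57.6 in the other vehicle mice, *Adgre1* had 143 beside 45.0 to 73.2 and *Timd4* had 37.1 beside 9.87 to 17.5, while *Clec4f* had 73.0 beside 193 to 231. In ISOGK mouse 4 *Vsig4* had 5.34 CPM beside 75.1 to 94.4 in the other ISOGK mice. Vehicle mouse 1 was also the highest library for *Slco1a1* and *Slco1b2*, and without it their log2 fold changes were -0.60 and -0.40, neither past the threshold. These marker genes were named after their values were seen, and their part in the level of the carriers was not tested. The log2 ratio of *Slco1b2* to *Slco2b1* counts, 1.51 ± 0.347 with vehicle and 1.17 ± 0.455 with ISOGK (SD, n = 4 each), differed by -0.33 (two-sided exact permutation test, p = 0.286, adjusted p = 0.286 over 3 ratios).

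**Figure D3:**
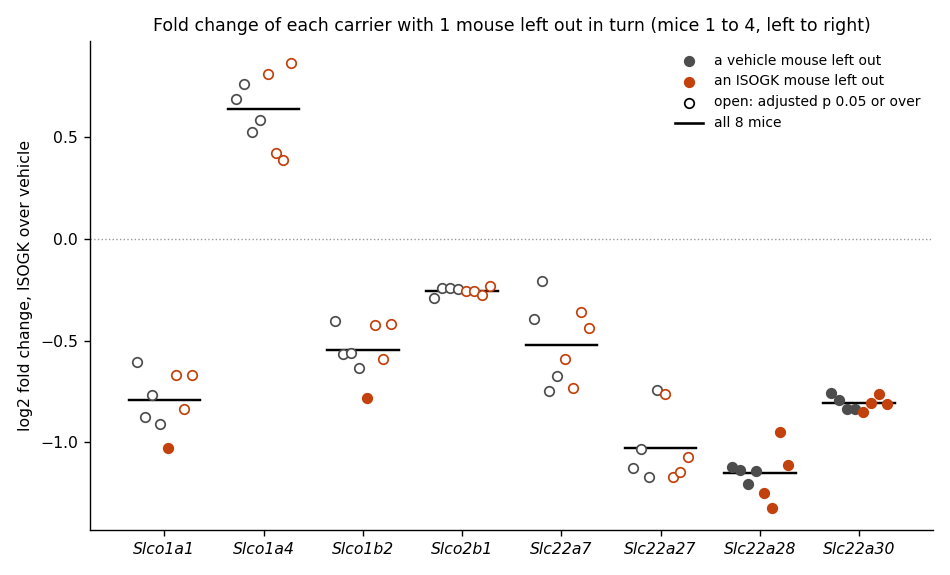
Log2 fold change of each carrier (vertical axis) when 1 mouse was left out in turn, grey for vehicle mice and orange for ISOGK mice, with the black line for all 8 mice. Filled points have an adjusted p under 0.05: all points of *Slc22a28* and *Slc22a30* are filled, and for *Slco1a1* and *Slco1b2* the point without ISOGK mouse 1 is.

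Per kilobase of annotated exon, *Slco1b2* was the most abundant member in vehicle livers at 90.5 ± 18.2 CPM per kilobase (SD, n = 4), followed by *Slco1a1* at 43.8 ± 12.1. *Slco2b1* at 26.01 ± 1.34 and *Slc22a30* at 25.97 ± 2.08 came next and did not differ beyond their spread, nor did *Slc22a7* at 9.60 ± 4.85 and *Slco1a4* at 8.57 ± 1.84. *Slc22a28* at 3.67 ± 0.292 and *Slc22a27* at 0.781 ± 0.298 were the least abundant. In ISOGK livers *Slco1b2* stayed first at 62.1 ± 21.4 CPM per kilobase, and *Slco1a1* at 25.3 ± 8.67 no longer stood apart from *Slco2b1* at 21.8 ± 0.786. *Slc22a30* at 14.9 ± 1.17 lay within the wide spread of *Slco1a4* at 13.4 ± 6.86. The members summed to 209 ± 33.2 CPM per kilobase with vehicle and 146 ± 30.1 with ISOGK, with ranges of 175 to 254 and 114 to 183 that overlapped.

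Within that sum, *Slco1b2* held 43.1% ± 1.89 of the level in vehicle livers and 41.7% ± 6.17 in ISOGK livers (SD, n = 4 each). The share of *Slco1a4* was 4.13% ± 0.817 with vehicle and 9.32% ± 4.87 with ISOGK, where it ran from 4.53% to 14.3%. *Slco1a1* held 20.7% ± 3.04 and 16.98% ± 2.50, and *Slc22a30* held 12.6% ± 1.10 and 10.5% ± 2.21. These shares overlapped between the groups.

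The members were set beside 26 other uptake carriers, of which 20 were in the table and 11 could be tested. In edgeR's quasi-likelihood test 2 of the 11 were higher and 1 was lower, beside 4.11% and 3.44% of all tested genes. The median log2 fold change of the 11 was 0.04, and -0.10 when libraries were scaled by size alone. That scaling shifted the median of all tested genes by -0.13. *Slc22a5* (OCTN2), the carnitine carrier, rose with a log2 fold change of 1.15 (SE 0.16, adjusted p of 0.00185). *Slc22a3* (OCT3), an organic cation carrier, rose by 1.31 (SE 0.35, adjusted p of 0.0487), and *Slc22a18* fell by 0.33 on the log2 scale (SE 0.09, adjusted p of 0.0369). *Slc22a5* passed in all 16 alternatives. *Slc22a3* passed in 4 of 16 and missed the threshold with DESeq2's size factors, library size alone, no filter beyond 1 count, limma-voom, the replicate block (adjusted p of 0.0593 in edgeR) and each mouse but ISOGK mouse 1 left out, with adjusted p up to 0.126. *Slc22a18* passed in 8 of 16 and missed it with the replicate block (adjusted p of 0.0595 in edgeR) and with each mouse but ISOGK mouse 1 left out, with adjusted p up to 0.122.

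The sodium-dependent bile acid carrier *Slc10a1* (NTCP) had 441 ± 8.39 CPM with vehicle and 442 ± 42.3 CPM with ISOGK (SD, n = 4 each), a log2 fold change of 0.00 with a 95% interval from -0.21 to 0.21 (adjusted p of 0.994 in edgeR's quasi-likelihood test). It is a carrier of the same membrane as *Slco1b2* and *Slco1a1*, and its groups overlapped. The difference between its change and those of the members was not tested.

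**Figure D4:**
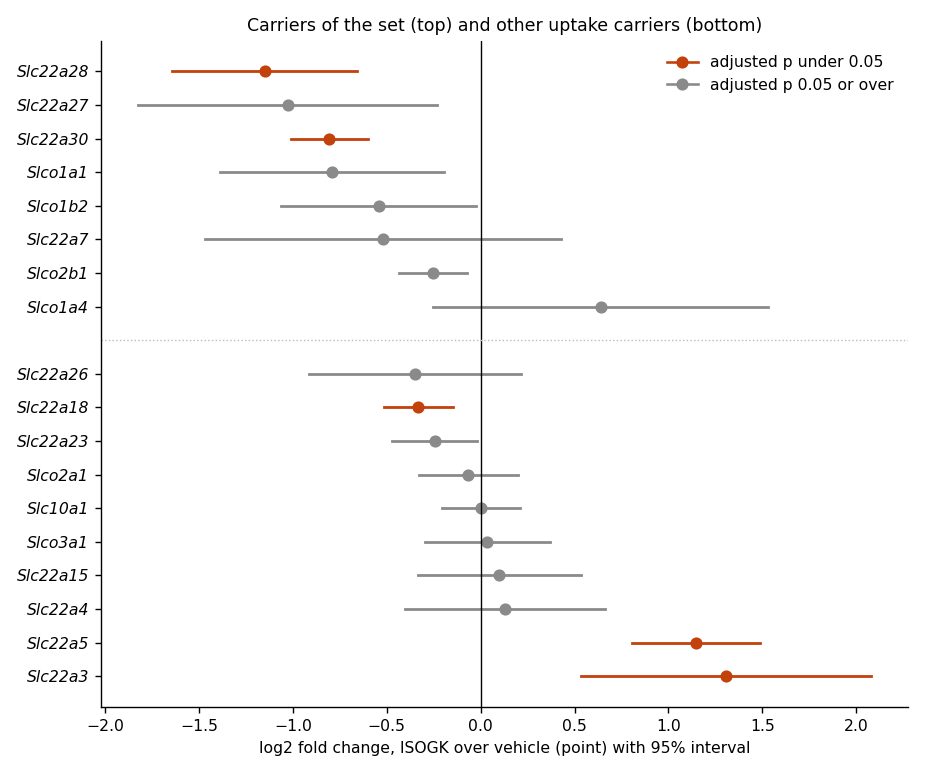
Log2 fold change of ISOGK over vehicle (horizontal axis) with its 95% interval for the 8 members (top) and other uptake carriers (bottom), in orange where the adjusted p of edgeR's quasi-likelihood test was under 0.05. In the upper block 7 points lie to the left of 0 and 2 are orange. In the lower block the orange points are *Slc22a5* and *Slc22a3* to the right and *Slc22a18* to the left.

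Among the genes listed as export carriers, 11 of 13 were tested, 2 were higher and 3 were lower, beside 4.11% and 3.44% of all tested genes. *Abcb11*, the bile salt export pump, fell from 551 ± 63.3 to 262 ± 57.1 CPM (SD, n = 4 each, with a log2 fold change of -1.07, SE 0.15, adjusted p of 0.00183 in edgeR's quasi-likelihood test). *Abcb4*, the phospholipid exporter of the canalicular membrane, rose from 209 ± 23.8 to 364 ± 35.1 CPM (log2 fold change 0.80, SE 0.11, adjusted p of 0.00178). *Abcb1b*, a drug exporter, rose by 1.28 on the log2 scale (SE 0.22, adjusted p of 0.00547). Its level was low, at 0.956 ± 0.113 CPM with vehicle and 2.33 ± 0.311 CPM with ISOGK, from 18 to 54 counts per library.

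Of 16 regulators of carrier genes, all tested, 1 was higher and 1 was lower, beside 4.11% and 3.44% of all tested genes. The median log2 fold change of the 16 was -0.03. *Nr1i3*, which encodes CAR, had 74.5 ± 6.35 CPM with vehicle and 102 ± 16.7 CPM with ISOGK (log2 fold change 0.45, SE 0.12, adjusted p of 0.0415 in edgeR's quasi-likelihood test), a call that was lost when libraries were scaled by size alone, where 0 regulators were higher and 1 was at an unadjusted p under 0.05. It passed in 9 of 16 alternatives, and the other losses came with single mice left out (each vehicle mouse, ISOGK mouse 3 and ISOGK mouse 4, adjusted p up to 0.125 in edgeR). *Ghr*, the growth hormone receptor, fell from 222 ± 12.9 to 162 ± 16.3 CPM (log2 fold change -0.45, SE 0.10, adjusted p of 0.0181), and it passed in 13 of 16, missing without vehicle mouse 1, 2 or 4 (adjusted p up to 0.0676). *Cebpa*, the third by adjusted p, had a log2 fold change of -0.49 and did not pass (adjusted p of 0.0679).

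Of 16 target genes of CAR and PXR, 6 were lower, beside 3.44% of all tested genes, and 10 did not pass. The median log2 fold change of these 16 was -0.40. The number lower was 7 in DESeq2, 7 with library size alone, 5 in limma-voom and 4 with the replicate block. *Gstm3*, a glutathione transferase, fell from 26.6 ± 11.4 to 5.46 ± 0.357 CPM (log2 fold change -2.28, SE 0.27, adjusted p of 0.00178 in edgeR's quasi-likelihood test). *Cyp2c29*, a cytochrome P450, fell from 953 ± 92.5 to 594 ± 98.4 CPM (log2 fold change -0.68, SE 0.13, adjusted p of 0.00900), and *Gstm1* fell by 0.52 on the log2 scale (SE 0.13, adjusted p of 0.0322). *Gstm3* and *Cyp2c29* passed in all 16 alternatives and *Gstm1* in 11, missing without vehicle mouse 2, 3 or 4 or ISOGK mouse 1 or 2 (adjusted p up to 0.107 in edgeR). *Slco1a4*, counted among the members and also known as a target of these receptors, had a value of the other sign that did not pass.

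Since *Slco1a1* is known for its sex difference, genes with male-biased and female-biased levels in liver were also counted. Of 12 male-biased genes 2 were higher, *Gstp1* (log2 fold change 0.57, adjusted p of 0.0316) and *Cyp2d9* (log2 fold change 0.53, adjusted p of 0.0494), the median log2 fold change was 0.55, and *Mup20* did not pass (adjusted p of 0.0515 in edgeR's quasi-likelihood test). DESeq2 called 7 of the 12 higher and 1 lower, and limma-voom called 3 higher and 1 lower. The replicate block called 6 higher and 0 lower. Scaling by library size alone called 0, with 7 higher and 2 lower at an unadjusted p under 0.05. With TMM, edgeR had 8 higher and 1 lower at an unadjusted p under 0.05. Of all tested genes, 4.11% were called higher in edgeR, and 765 of 12307 in DESeq2. Of 5 tested female-biased genes, *Cyp17a1* rose by 1.85 on the log2 scale (adjusted p of 0.000689) and *Cyp2b9* fell by 4.07 (adjusted p of 0.00322). *Hsd3b5*, a male-biased gene named after its value was seen, had a log2 fold change of -2.04, from 71.4 to 17.3 CPM without overlap of the groups, and did not pass (adjusted p of 0.0708), and *Slco1a1*, also below 0, did not pass either. *Gstp1* passed in 9 of 16 alternatives and *Cyp2d9* in 4, with adjusted p up to 0.0911 and 0.135 in edgeR. *Hsd3b5* passed in 4 of 16: in DESeq2 (adjusted p of 0.005), in limma-voom (adjusted p of 0.00698), without the robust option and without ISOGK mouse 1.

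The genes whose level over the 8 libraries was most like that of a member were found by the mean absolute difference of gene-centred log2 CPM, and they are given as a description of likeness alone. For *Slc22a30* these were *Ttc21b*, *Klc4* and *Tigd2*, which differed from it by 0.067, 0.090 and 0.093 log2 units on average. For *Slco1b2* they were *Zfp729b*, *Pirb* and *Ly9*, at 0.053, 0.066 and 0.10 log2 units, and *Ly9* was also the nearest to *Slco1a1*, at 0.10. The nearest to *Slc22a27* was *Cyp2c29*, at 0.25 log2 units.

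Promoter windows were given in RefSeq for 7 of the 8 members, 9 windows in all, and 4 motifs were searched on both strands. AGGTCA, a core motif of nuclear receptors, was found in *Slco1b2*, *Slco1a1* and *Slc22a27* and in 16.3% of the 32851 windows of all genes. GTTAAT, an HNF1 motif found in 7.10% of all windows, lay 66 bases before the start of *Slco1b2*. TTCNNNGAA, a STAT site found in 8.30%, was present in *Slco1b2* and in 2 of the windows of *Slco2b1*. TGTTTAC, a forkhead site found in 3.65%, was in none of the 9. The windows of *Slc22a28* and *Slc22a30* shown above held none of the 4. These matches describe the letters of the windows and say nothing of binding.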

How the data were processed

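Whole-gene read counts from liver RNA of 4 vehicle-treated and 4 ISOGK-treated mice were analysed. Single-end reads were aligned by the authors with HISAT2 to the mouse genome (mm10 per the labels) and counted with StringTie, and the deposited table holds raw counts per gene symbol without normalization. The treatment of reads that match several genes and of strand was not given in the sources used here. Columns named DMSO were read as the vehicle group of the sample titles, and 0 columns were left unused.

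Counts were filtered with filterByExpr (minimum count 10, minimum total 15) and fitted over all genes in edgeR 4.0.16 (TMM, robust quasi-likelihood test, R 4.3.3), with p-values adjusted by Benjamini-Hochberg over the 12307 tested genes, a threshold of 0.05 and, for size, a log2 fold change of 1. Alternatives were DESeq2 1.42.0, limma-voom (limma 3.58.1), other scalings and filters, the replicate number as a block, and each mouse left out. Ratios of 2 carriers (0.5 added to each count) were compared by exact permutation in scipy 1.17.1. Positions, exon lengths and shared stretches of 50 bases came from GENCODE M21 (GRCm38), to which 16189 symbols matched, and alignments from Biopython 1.88. On simulated counts with changed genes, the edgeR script was tested before use.

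Members and lists were chosen with earlier results of these data known. Named were the members, up to 3 genes per list with the smallest adjusted p, the 3 nearest in pattern for a few members, and *Apoe*. Lists of pericentral and periportal genes and of other cell types were also read: 2 of 10 pericentral genes were higher and 1 lower (0 higher in limma-voom and with library size alone, with 3 and 2 at an unadjusted p under 0.05), and 2 of 10 periportal genes were higher (4 in DESeq2, 1 with library size alone). Of 5 cholangiocyte markers, whose median log2 fold change was 0.61, 1 was higher, 4 were higher at an unadjusted p under 0.05, 2 in DESeq2, 1 in limma-voom, and 0 with DESeq2's size factors, library size alone or the replicate block. Of 7 kidney tubule markers 3 were in the count table and 1, *Lrp2*, was tested. It was higher in edgeR, at mean levels of only 0.233 CPM with vehicle and 1.49 CPM with ISOGK. The rest of that list was absent or had at most 3 counts in a library. In edgeR 0 of 6 sinusoidal endothelial and 0 of 6 stellate cell markers passed, with 0 and 1 at an unadjusted p under 0.05 (lower), 0 and 1 in DESeq2 and 0 and 0 in limma-voom. Results of 1 gene of a list are not reported here.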

Additional observations from a re-analysis of the deposited data

Results flagged for a closer look

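The level of *Slco2b1* in vehicle mouse 1 stood apart from the other vehicle mice. It was 143 CPM beside 158 to 160.0 CPM, and the distance to its closest neighbour took up 0.867 of the vehicle mice's range, more than the 95% critical value that Dixon's test sets for 4 samples. It was the only such case among 26 groups of values examined (8 carriers, 3 ratios, library totals and the summed level, in each group), and chance gives about 1 in 20. Without vehicle mouse 1 the log2 fold change of *Slco2b1* was -0.29 and did not pass.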

How the results depend on the processing

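*Slc22a28* and *Slc22a30* stayed lower and past the threshold in all 16 alternatives run for each, with log2 fold changes of -1.32 to -0.95 and -0.94 to -0.76. No member changed sign in any alternative, and 120 of 127 member values kept their side of the threshold. The number of members called lower rose from 2 to 4 with the Wald test of DESeq2 and to 4 with a replicate block, and ranged from 2 to 4 over the mice left out (4 without ISOGK mouse 1). Over all tested genes, 670 of 12307 were lower in DESeq2, 416 of 12307 with the block and 476 of 12428 without ISOGK mouse 1. *Slco1a1* passed in DESeq2 (log2 fold change -0.80), with the block (-0.81, adjusted p of 0.00261 in edgeR) and without ISOGK mouse 1 (-1.03). *Slco1b2* passed with the block (-0.58, adjusted p of 0.0227 in edgeR) and without ISOGK mouse 1 (-0.78), and *Slco2b1* passed with library size alone (-0.38) and in DESeq2 (-0.26).

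The replicate numbers were not shown to pair the mice: deviations of same-numbered mice had correlations of 0.013, -0.014, 0.075 and 0.085. With the replicate block the 3 ratios kept their values (sign-flip p of 0.125, 0.125 and 0.25 by exact enumeration, where 0.125 is the smallest 4 pairs allow). Over the mice left out they ran from -1.69 to -0.97 for *Slco1a1* to *Slco1a4*, from -0.53 to -0.17 for *Slco1b2* to *Slco2b1* and from -0.59 to -0.20 for *Slc22a28* to *Slc22a30*. With 1 mouse left out no such test can pass, since 4 mice against 3 allow no p below 0.0571 in the exact permutation test, a value that *Slco1a1* to *Slco1a4* reached without ISOGK mouse 1 and *Slc22a28* to *Slc22a30* without ISOGK mouse 2.

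Library size alone shifted the median log2 fold change of all genes by -0.13, with 262 genes higher and 804 lower in place of 506 and 423. DESeq2 called 765 higher and 670 lower. Over the mice left out the counts ran from 219 (without vehicle mouse 2) to 712 (without ISOGK mouse 3) higher and from 160 (without vehicle mouse 2) to 523 (without ISOGK mouse 3) lower, and leaving out any vehicle mouse or ISOGK mouse 2 lowered both by over 1.5 times. The causes were not tested. *Slc22a27* had too few counts for the minimum of 10 in every library, and its fold change rests on at most 58 counts per mouse.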
